A study of Mus musculus with 15 samples.

Results

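The adult mouse heart was represented by 1 library of small RNA among 15, and it was set against the 11 other adult libraries of the series, namely brain, eye, kidney, liver, lung, salivary gland, smooth muscle, spinal cord, spleen, stomach and testis. The heart library held 2622423 reads on 796 mature miRNA names, of 1558 names listed in the series. Every tissue came from the same commercial panel of mouse total RNA, and the labels give no strain, age, sex or number of animals. Adult here means a library not titled as an embryo. The remaining 3 libraries were embryos of 11, 15 and 17 days and entered no test of heart in the main comparisons, and the day of the last follows its title, which its source field contradicts. Libraries were made by AQ-seq, in which adapters with randomized ends are ligated to size-selected RNA to lower ligation bias, and the series as a whole concerns the switch of miRNA arms and its regulation by uridylation.

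A miRNA is cut from a hairpin precursor, and the strand kept from its 5p or 3p arm guides silencing of mRNAs that match its seed, bases 2 to 8. In cardiac and skeletal muscle a small set of miRNAs, often called myomiRs, is made at very high levels. miR-1 and miR-133a are transcribed together from shared loci and act on growth, conduction and contraction. miR-208a, miR-208b and miR-499 are encoded in introns of myosin heavy chain genes and take part in the choice of myosin isoforms and in stress remodelling. miR-206 and miR-133b share a locus that is known from skeletal muscle. In bulk tissue, fewer cells of a type and less RNA per cell cannot be told apart.

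The mature sequences that the results turn on are printed with the seed in capitals, as given by RefSeq for GRCm38.p6. Of the 1558 names, 1326 matched an entry, and these carried 54.4% of heart reads. The first set shows the strands of the myosin genes.

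miR-208a-3p: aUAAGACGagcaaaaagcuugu
miR-208b-3p: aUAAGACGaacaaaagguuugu
miR-499-5p: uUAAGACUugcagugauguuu
miR-208a-5p: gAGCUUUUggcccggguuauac

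miR-208a-3p and miR-208b-3p share the seed and differ by G10A, A16G and C18U, counted from the 5′ end with the base of miR-208a-3p first. miR-499-5p differs from miR-208a-3p at 9 of 21 positions, of which 1, G8U, lies in the seed. The second set shows other strands described below, first 4 that are abundant or of particular arm use in heart and then 5 that were close to missing from it.

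miR-133b-3p: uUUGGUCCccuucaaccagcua
miR-378c: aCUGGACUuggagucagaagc
miR-126a-3p: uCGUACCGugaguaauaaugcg
miR-490-3p: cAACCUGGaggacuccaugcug
miR-206-3p: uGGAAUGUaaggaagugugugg
miR-200b-3p: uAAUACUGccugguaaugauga
miR-200c-3p: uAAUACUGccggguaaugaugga
miR-182-5p: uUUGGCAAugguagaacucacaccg
miR-96-5p: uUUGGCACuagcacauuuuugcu

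The hairpin of miR-208a lies at chr14:54949060-54949142 on the minus strand of GRCm38, in an intron of Myh6, the alpha myosin heavy chain of the adult mouse heart. That of miR-208b lies at chr14:54975700-54975776, 26.6 kb away, in an intron of Myh7, the beta chain of the fetal ventricle and slow skeletal muscle. The miR-499 hairpin lies at chr2:155622880-155622958 on the plus strand, in an intron of Myh7b. The hairpins of miR-206, at chr1:20679010-20679082, and miR-133b, at chr1:20682769-20682887, lie 3.7 kb apart within the noncoding gene Gm28653.

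The given heart markers miR-1a-3p, miR-133a-3p, miR-208a-3p, miR-499-5p and miR-378a-3p all had their highest share of reads in heart. miR-1a-3p took 17.4% of heart reads (95% interval 17.4 to 17.5) and 0.0118% (spleen) to 1.66% (eye) in the others, with a median of 0.135%. miR-133a-3p took 11.2% of heart reads, against 0.00427% (spleen) to 1.71% (eye) with a median of 0.117%. Together these 2 strands made up 28.6% of the heart library, where the leading pair of another adult library took 8.93% to 38.8%. The share of miR-1a-3p in heart was 10.5 times the share in eye and 129 times the median of the others, and for miR-133a-3p these ratios were 6.55 and 96.0. Intervals are exact (Clopper-Pearson) and take in counting error alone. PCR copies of 1 molecule are counted as separate reads, so the intervals can be too narrow.

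**Figure D1:**
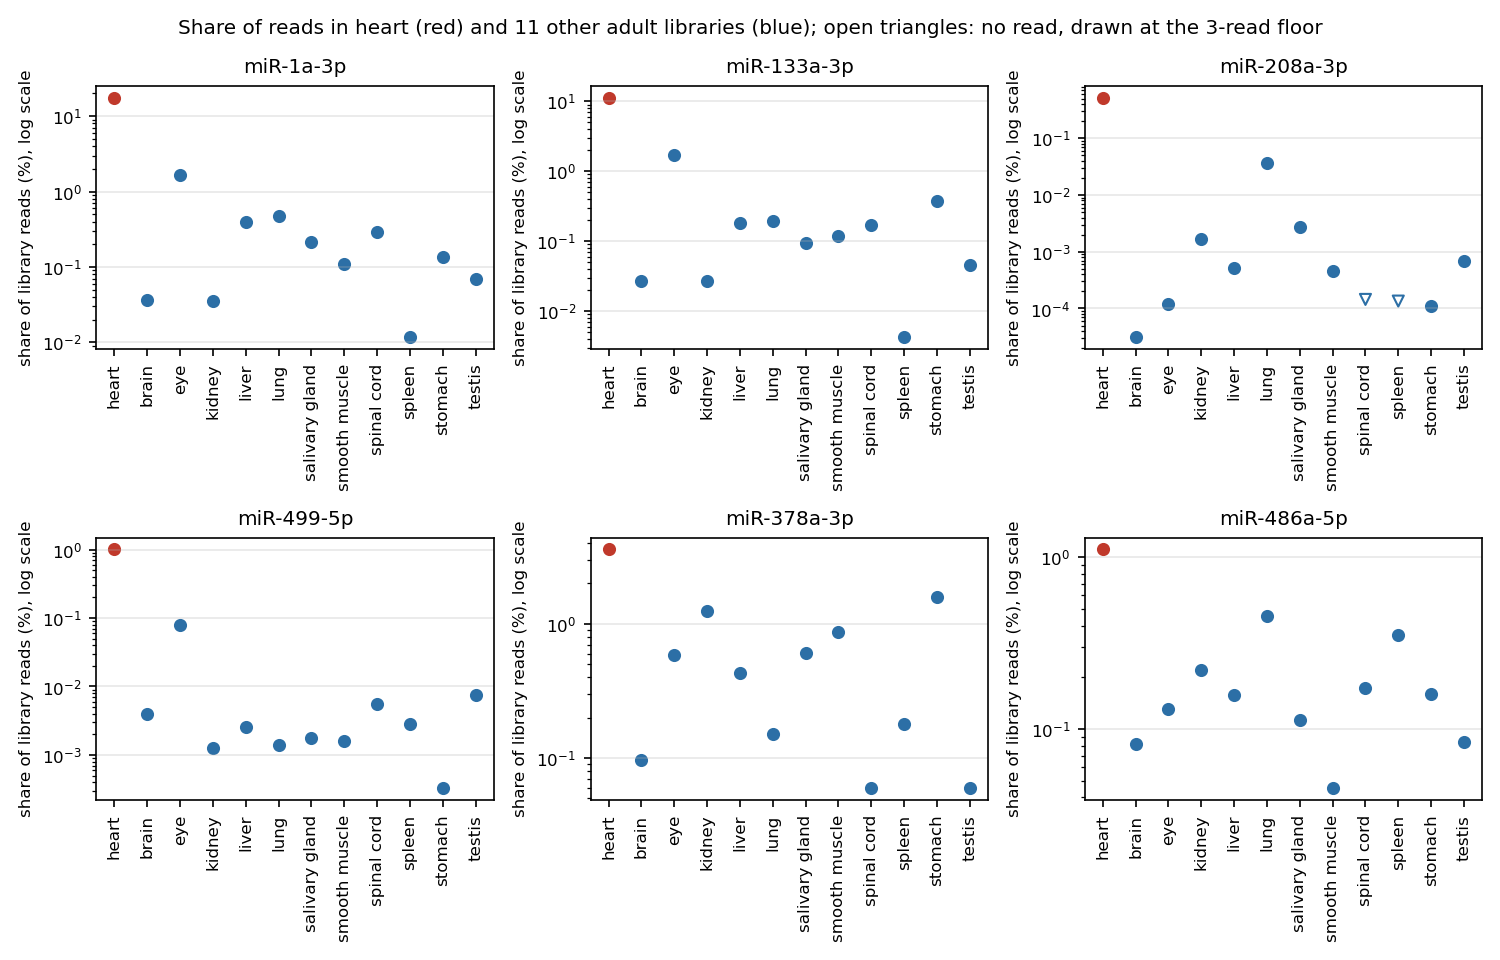
Share of library reads (percent, log scale) of 6 miRNAs in heart (red, left) and the 11 other adult libraries (blue), 1 point per library. Heart is highest for all 6, and lung is the next for miR-208a-3p and eye for miR-1a-3p, miR-133a-3p and miR-499-5p.

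Both strands of miR-208a and of miR-499 were more than 10-fold over the highest other tissue, while miR-208b-3p was 3.01-fold over it. miR-208a-3p had 13427 reads or 0.512% in heart and none in spinal cord or spleen, and its median over the 11 was 0.000463%. Lung was the next tissue, with 1081 reads or 0.0364%, so that heart was 14.1-fold (13.2 to 15.0) over the highest other library and 187-fold over the highest once lung was left out. The opposite strand miR-208a-5p had 2201 reads in heart, at most 24 in any other adult library and none in 5 of them, a ratio of 104 (69.6 to 162) to the share in lung. It had the highest ratio of all names, and 291 without lung.

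miR-499-5p had 26340 reads or 1.004% in heart, against 0.000325% (stomach) to 0.0793% (eye) with a median of 0.00259%. That was 12.7-fold over eye and 388-fold over the median, and without eye the ratio to the highest other was 135. Its opposite strand miR-499-3p had 355 reads in heart and at most 21 elsewhere in adults, 16.4-fold over eye. Over both strands with the seed UAAGACG, miR-208a-3p and miR-208b-3p, heart had 0.542% of its reads, against 0% (spinal cord) to 0.0465% (lung).

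The products of Myh6 and Myh7 differed in their balance. miR-208b-3p, from Myh7, had 794 reads in heart, 5.91% of the miR-208a-3p count, and was 3.01-fold over lung and 158-fold over the median. In lung, miR-208b-3p stood at 27.7% of miR-208a-3p, with 299 reads. In the 11-, 15- and 17-day embryos it stood at 211%, 211% and 158%, with 276 to 634 reads. The Myh6 product led in heart and in lung, by more in heart, and the Myh7 product led in all 3 embryos. Outside heart and lung no adult library had more than 57 reads of either strand, a count reached by miR-208a-3p in salivary gland.

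miR-133b-3p had 17101 reads or 0.652% in heart, against 0.000495% (spleen) to 0.193% (eye), and was 3.39-fold over eye. Its neighbour miR-206-3p was nearly missing, with 2 reads in heart, a share of 7.63e-05%, against 0.152% in eye and 0.0255% in lung. Smooth muscle and spleen had no read of miR-206-3p, below a floor of 3 reads, or 0.000174% and 0.000135%. Relative to miR-133a-3p, miR-133b-3p was at its lowest in heart, at 5.82%, where the others had 9.71% (kidney) to 38.7% (brain). Kidney had 37 reads of miR-133b-3p and spleen and testis 11 and 8. The mature 3p strands of miR-133a and miR-133b are nearly identical, so the way reads were shared between them in counting bears on this ratio.

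**Figure D2:**
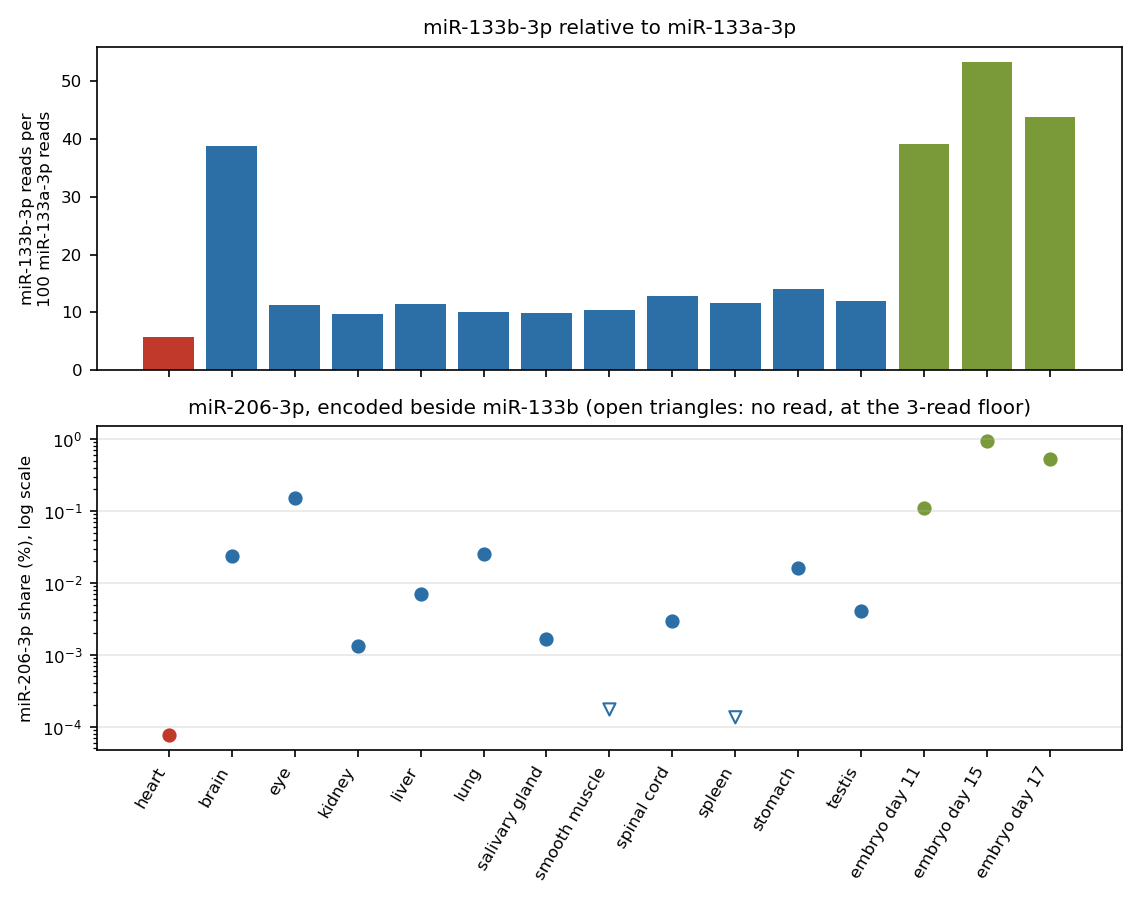
Upper panel, reads of miR-133b-3p per 100 reads of miR-133a-3p in heart (red), the 11 other adult libraries (blue) and the 3 embryos (green). Lower panel, share of reads of miR-206-3p (percent, log scale) in the same libraries, where heart has 2 reads and the embryos 1684 to 20040.

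The minor strands of the same hairpins followed the major ones. miR-133a-5p had 6025 reads in heart and was 10.3-fold over eye. miR-1a-2-5p, with 1119 reads, was 10.1-fold and miR-1a-1-5p, with 966 reads, 4.62-fold over eye. These 2 strands come from the separate miR-1a hairpins, and miR-1a-1-5p stood at 86.3% of miR-1a-2-5p in heart. miR-133b-5p and miR-1b-5p had no read in heart.

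Outside the striated muscle miRNAs, heart led in the miR-378 and miR-486 families, except for miR-378d, which had 4 reads in heart and 4 in stomach. The stomach library held 922137 reads, against 2622423 in heart. miR-378a-3p, a miRNA linked to mitochondrial energy metabolism, took 3.57% of heart reads, against 0.0594% (testis) to 1.58% (stomach), which is 2.26-fold over stomach. miR-378c had 26941 reads and was 3.24-fold over stomach, miR-378a-5p had 5227 and was 2.54-fold over it, and miR-378b had 918 and was 2.76-fold over it, or 4.23-fold over the highest other without stomach. The count of miR-378c was 28.8% of that of miR-378a-3p in heart, and the close likeness of these strands makes the split between them uncertain. miR-486a-5p, known from red cells and muscle, took 1.11% of heart reads, against 0.0452% (smooth muscle) to 0.453% (lung), a ratio of 2.45. miR-486b-5p had 99.7% of the miR-486a-5p count in heart, so their values cannot be taken as separate. Their 3p strands miR-486a-3p and miR-486b-3p, with 530 and 49 reads, were 3.35-fold and 3.45-fold over the highest other.

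In all, 22 of the 367 names with at least 20 heart reads had their highest share in heart, and 19 of the 367, or 5.18%, were at least 2-fold over the highest other library. These 19 are the names given so far with such a ratio. They held 38.3% of heart reads and 0.371% (brain) to 4.73% (eye) of reads in the other adults. Both miR-486a-5p and miR-486b-5p enter the 19 and these sums, though their values cannot be taken as separate. For the other adult libraries, the number of names that met the same 2-fold rule ranged between 5 and 100, with a median of 13. The 100 were in testis, the shallowest library. A ratio of at least 10 was reached by 7 names in heart. The 3 of the 22 names under 2-fold were near equality, miR-99a-5p at 1.12, miR-504-5p at 1.10 and miR-149-5p at 1.02 times spinal cord. The name just inside the 2-fold threshold was miR-378a-3p at 2.26. Just under the read minimum were miR-208b-5p, with 19 reads and a ratio of 3.34, and miR-7068-3p, with 17 reads and 1.92.

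**Figure D3:**
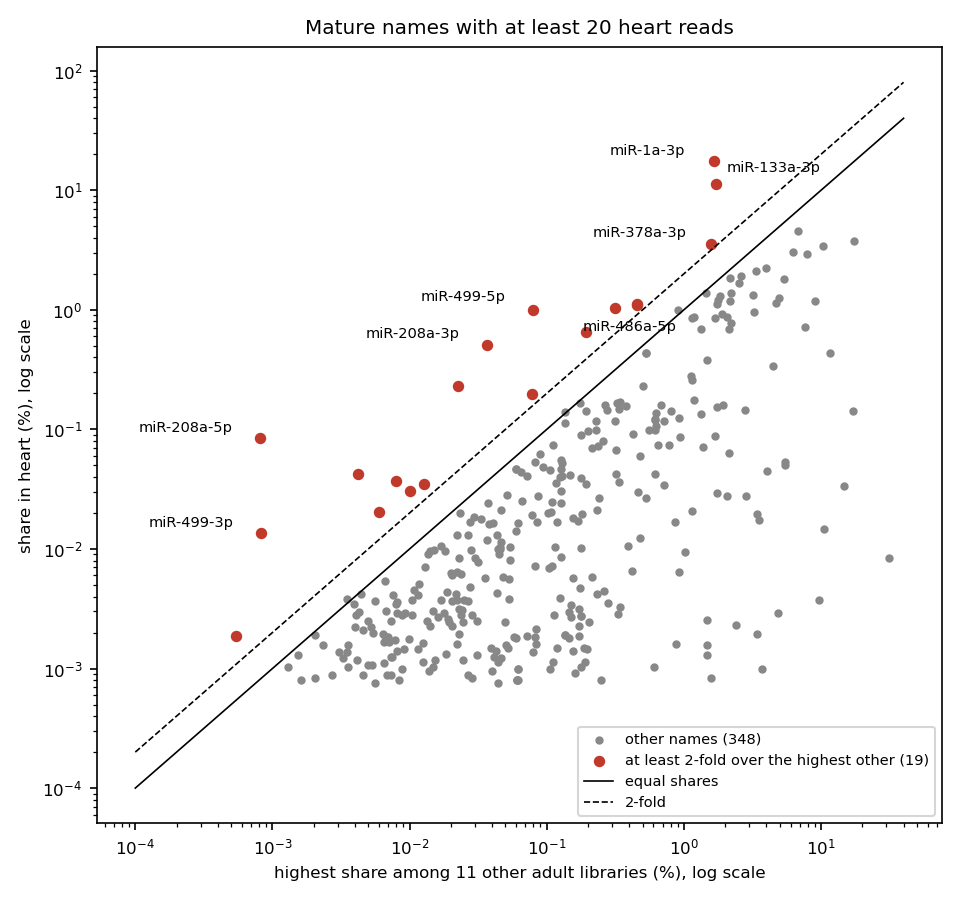
Share of reads in heart (vertical) against the highest share among the 11 other adult libraries (horizontal), both in percent on log scales, for the 367 names with at least 20 heart reads. The 19 red names lie at least 2-fold above equality, and miR-208a-5p lies furthest above it.

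miR-149-5p and miR-490-3p had heart and spinal cord among their 3 highest adult libraries. miR-149-5p, from an intron of Gpc1, had 0.139% of reads in heart, 0.136% in spinal cord and 0.0925% in brain, and its median over the 11 was 0.00856%. The heart and spinal cord values did not differ beyond counting error, with a ratio of 1.02 (0.975 to 1.08). miR-490-3p comes from a hairpin at chr6:36421742-36421825 in an intron of Chrm2, the gene of the M2 muscarinic receptor known from pacemaker and atrial tissue. It had 0.0198% of reads in heart, 18.0-fold over the median of 0.0011%, against 0.0234% in spinal cord, 0.0229% in stomach, 0.00845% in smooth muscle and 0.00826% in brain.

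No name passed the edgeR quasi-likelihood test, in which heart was the lone library and was assumed to vary like the 11 others. Of 822 names, 0 (0%) had an adjusted p under 0.05. The 19 names above were chosen from these same counts for a high heart share, so their fold changes give no separate support. The smallest adjusted p was 0.0796, for miR-208a-5p, with a log2 fold change of 9.72 ± 1.73 (SE). miR-499-5p had 7.47 ± 1.498, miR-1a-3p 6.44 ± 1.33 and miR-499-3p 7.10 ± 1.51, each with an edgeR adjusted p of 0.0946. miR-133a-3p had 6.08 ± 1.44 (edgeR adjusted p = 0.131), miR-208a-3p 7.48 ± 2.29 (0.350) and miR-378a-3p 3.39 ± 1.25 (0.717). These p-values set heart against the spread between 11 unlike tissues and say nothing of the spread between animals. With 1 library against 11, an exact permutation test of a single name cannot go below p = 0.0833.

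DESeq2 called 14 names (2.22%) higher and 11 (1.74%) lower in heart among the 632 to which it gave an adjusted p. The 14 were miR-1a-3p, miR-1a-1-5p, miR-1a-2-5p, both strands of miR-133a, miR-133b-3p, both strands of miR-208a, miR-208b-3p, miR-499-5p, miR-486a-3p, miR-486b-3p, miR-181a-2-3p and miR-547-3p. The last 2 did not lead in heart. miR-181a-2-3p had 0.00614% in heart, against 0.0236% in eye. miR-547-3p had 111 heart reads, a share of 0.0182 times the highest other and an edgeR log2 fold change of -0.94. DESeq2 ran with default settings, which can replace outlying counts among the 11 others before the fit. What this did to the calls was not tested. The 11 lower names were miR-375-3p, miR-96-5p, miR-182-5p, miR-183-5p, miR-205-5p, miR-200a-3p, miR-200b-3p, miR-429-3p, miR-124-3p, miR-3059-5p and miR-873a-3p. For the last 2 heart and most others had no read, so no fold change is given. In edgeR 9 names passed as higher when eye was left out and 3 when lung was left out.

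miR-375-3p, known from pancreatic islets and secretory epithelia, had 4 reads or 0.000152% in heart, against 0.0057% (kidney) to 0.93% (salivary gland) with a median of 0.0635%. The cluster of miR-183, miR-96 and miR-182 on chromosome 6, known from photoreceptors and hair cells, was led by eye. miR-182-5p had 17 reads or 0.000648% in heart, against 0.0054% (spleen) to 7.68% (eye). miR-183-5p had 10 heart reads, and miR-96-5p had 1, with 0.00127% (liver) as its lowest share elsewhere. miR-205-5p, known from stratified and glandular epithelium, had 12 reads.

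The miR-200 family, which maintains the epithelial state, was low in heart in all 5 of its major strands, from 14 reads of miR-429-3p to 67 of miR-200c-3p. miR-200a-3p had 61 reads in heart, miR-200b-3p 51 and miR-141-3p 34. miR-200b-3p had 0.00194% in heart, against 0.00255% (spinal cord) to 3.43% (stomach) with a median of 0.164%. Heart was not the lowest for 3 of them, as miR-200a-3p, miR-200c-3p and miR-141-3p had 0.00233%, 0.00255% and 0.0013% in heart, against 0.00144%, 0.00154% and 0.000866% in spinal cord.

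Of 278 names for which the lowest other share would give at least 20 reads at the depth of heart, 9, or 3.24%, were at least 2-fold below it in heart. The lowest other library was 37.4-fold (14.1 to 140) over heart for miR-375-3p, 33.2-fold (5.37 to 1371) for miR-96-5p, 8.33-fold for miR-182-5p and 4.08-fold for miR-183-5p. The others were miR-7a-5p at 2.95, miR-205-5p at 2.65, miR-219a-5p at 2.25, miR-3535 at 2.23 and miR-467d-5p at 2.01, and for the last 2 the interval took in 1. Scaling by TMM, which discounts the reads taken by a few names, left the first 4, at 14.5-fold, now over spinal cord, for miR-375-3p, 31.8 for miR-96-5p, 5.22 for miR-182-5p and 3.03 for miR-183-5p. Of 429 names that could be judged against the median of the others, 174 were at least 2-fold and 34 at least 10-fold lower in heart. The median ratio of heart to that median over these names was 0.577, so a typical name was already lower by share. Of the 367 names with at least 20 heart reads, 53 were at least 2-fold higher than the median. miR-141-5p, miR-183-3p, miR-200a-5p, miR-203-5p, miR-802-3p, miR-219a-2-3p and miR-216b-5p had no heart read, which allows up to 0.000114%, where the median would have given at least 20.

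The share of reads is relative, and the abundance of miR-1a-3p and miR-133a-3p in heart lowers the share of every other name. Over the 367 names the median ratio of heart to the median of the others was 0.773, and TMM scaling raised the median of these ratios by 0.73 on the log2 scale, or 1.66-fold. Ratios a little below 1 can therefore change side with the scaling, and with TMM 55 names in place of 22 were highest in heart. At 2-fold TMM kept all of the 19 names and added miR-99a-5p, miR-149-5p, miR-504-5p, let-7c-1-3p and miR-3102-5p.2-5p.

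Summed over lists of miRNAs known from cell types and pathways, striated muscle stood highest. Its members took 31.2% of heart reads, against 0.0204% (spleen) to 3.83% (eye) with a median of 0.329%. Of its 17 members 11 had at least 20 heart reads, a filter that a member passes through being high in heart, and these 11 are among the 19 names given above. Of the other 6, miR-208b-5p had 19 heart reads and miR-1b-3p 4, and miR-206-3p, with 2, was lower in heart than its median of 0.00405%. miR-133b-5p and miR-1b-5p had no heart read, and miR-206-5p had none in any adult library. The oxidative metabolism list, made of the miR-378, miR-22, miR-193 and miR-365 families, took 7.08% in heart, against 0.843% (spinal cord) to 4.38% (liver). Of its 10 members 9, all but miR-378d, had at least 20 heart reads. Among these 9, 4 were highest in heart, all of the miR-378 family, where 22 of all 367 names, or 5.99%, were. miR-22-3p, abundant in muscle and liver, had 2.10% in heart, below 3.33% in liver and 2.27% in kidney. The miR-193 and miR-365 members were below their medians, with miR-193a-3p at 0.00244% in heart and a median of 0.0188%, miR-365-3p at 0.0196% and 0.0447%, and miR-193b-3p at 0.00778% and 0.0141%.

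**Figure D4:**
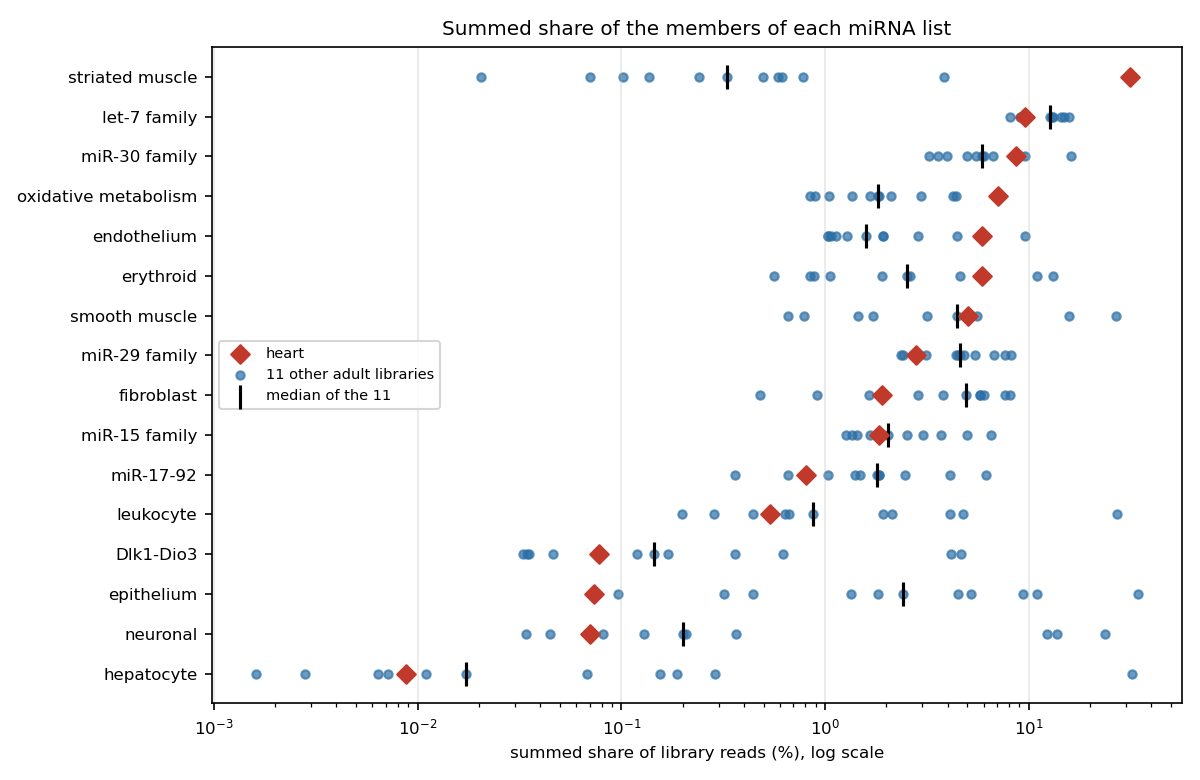
Summed share of library reads (percent, log scale) of each miRNA list in heart (red diamonds) and the 11 other adult libraries (blue points, with their median as a black bar). Striated muscle, at 31.2% in heart, and oxidative metabolism, at 7.08%, are highest in heart, and the epithelium list, at 0.0735%, is lowest in heart, where with TMM scaling heart ranked 11 of 12.

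Markers of other cell types were present at moderate levels. The endothelial list took 5.93% in heart, second to 9.6% in lung, with a median of 1.60%. Its member miR-126a-3p, made in endothelium from a hairpin within Egfl7, alone had 4.57%, against 6.75% in lung and 0.535% in stomach. miR-221-3p and miR-222-3p, of the same list, were at 0.118% and 0.0425% in heart, below their medians of 0.209% and 0.107%. The smooth muscle list, miR-143 and miR-145a, took 5.05%, against a median of 4.46% and 26.8% in stomach. The erythroid list took 5.88%, after lung at 13.2% and spleen, with miR-486a-5p and miR-486b-5p, of near-equal counts, both in the sum. Of its 7 members the 4 of miR-486 were highest in heart and the 3 of miR-451a and miR-144 were not. miR-451a, the red cell miRNA, had 3.44% in heart, against 0.449% (smooth muscle) to 10.3% (lung).

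The leukocyte list took 0.536% in heart and a median of 0.872%, the neuronal list 0.0702% and 0.200%, and the hepatocyte list 0.00881% and 0.0173%. The epithelium list, at 0.0735%, was lower in heart than in each of the 11 others, whose lowest was spinal cord at 0.0962%. Of its 11 members 8 were at least 2-fold below their medians, but miR-215-5p, with 99 heart reads, was at least 2-fold above its own. miR-194-5p, miR-192-5p and miR-203-3p held 883, 454 and 248 of the 1927 heart reads of the list. With TMM scaling heart ranked 11 of 12 in that list. The fibroblast list, which holds miR-199, miR-214 and miR-21a, took 1.90%, below its median of 4.92%. Its members miR-199a-3p and miR-199b-3p have the same sequence, with 11455 and 11472 heart reads, so their values cannot be taken as separate. Within it miR-21a-5p, a miRNA of injury and fibrosis, had 0.720% in heart and a median of 3.71%, and brain alone was lower, at 0.435%. The miR-199 and miR-214 members were above their medians, by 1.10-fold for miR-199a-5p to 1.49-fold for miR-214-3p, which had 0.0413% in heart and a median of 0.0278%.

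By shares, families that are broadly expressed lay within the range of the other tissues, while with TMM scaling the miR-30 and let-7 families were highest in heart, at 1.05 and 1.01 times the highest other. The miR-30 family took 8.65% in heart, against 3.24% (smooth muscle) to 16.2% (kidney). The let-7 family took 9.63%, against 8.06% to 15.7%. The miR-29 family, which represses collagen genes, took 2.79%, against 2.37% (smooth muscle) to 8.19% (brain), and the miR-15 family, which acts on cell cycle genes, 1.85%, against 1.27% (eye) to 6.53% (testis). With TMM scaling the ratio of heart to the median changed side for the let-7, miR-29 and miR-15 families, at 1.59, 1.05 and 1.20, where the shares gave 0.757, 0.610 and 0.904. The miR-17-92 list, linked to proliferation, was below the median under both, at 0.451 of it by shares and 0.607 by TMM. It also holds miR-106b-5p, miR-93-5p and miR-25-3p, which lie on chromosome 5, while its other members lie on chromosome 14. The Dlk1-Dio3 list took 0.0774% in heart and a median of 0.144%. The member counts given next are no test of a list, because the lists were chosen with earlier results of these data known. Members are also not independent, as both strands of the same hairpin enter separately. So do miR-486a-5p and miR-486b-5p, and miR-199a-3p and miR-199b-3p, each pair with near-equal counts. The 17 striated muscle members include miR-206-5p, which had no adult read, while the 822 names are those tested. No member of these 16 lists passed in edgeR, and without adjustment 12 of 17 striated muscle, 4 of 10 oxidative metabolism, 4 of 7 erythroid and 2 of 11 miR-30 members did, where 26 of all 822 names, or 3.16%, did.

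Arm usage in heart was close to that of the other tissues. It was given as the 5p share, the 5p reads as a percent of both arms, for 197 hairpins with at least 20 reads in heart and in at least 6 other adult libraries. In 165 of the 197 the heart value lay within 5 points of the median of the others, and the median absolute difference was 0.957 points. Heart lay above all others in 10 hairpins and below all in 13. In 1 of 197, or 0.508%, its 95% interval overlapped that of no other library with at least 20 reads. By edgeR on 5p and 3p counts, 0 of 197 (0%) passed, with 7 under 0.05 without adjustment and a smallest adjusted p of 0.980, and limma on log2 arm ratios also called 0.

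The 1 hairpin was mir-490, whose 5p share was 12.5% in heart (9.91 to 15.4, 594 reads). The other libraries with at least 20 reads had 27.0% in stomach (22.0 to 32.5, 289 reads), 30.8% in smooth muscle, 31.0% in spinal cord, 34.1% in brain, 35.4% in lung and 39.1% in eye (25.1 to 54.6, 46 reads). Heart was the lowest of these 7, and its edgeR log2 odds change was -1.82 ± 0.69 (SE, unadjusted p = 0.0165). Spleen, with 9 reads, had 11.1% and an interval of 0.281 to 48.2, and this interval and those of kidney and liver, with 3 and 5 reads, overlapped that of heart. The embryos had 54.3% to 67.6% from 34 to 132 reads.

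**Figure D5:**
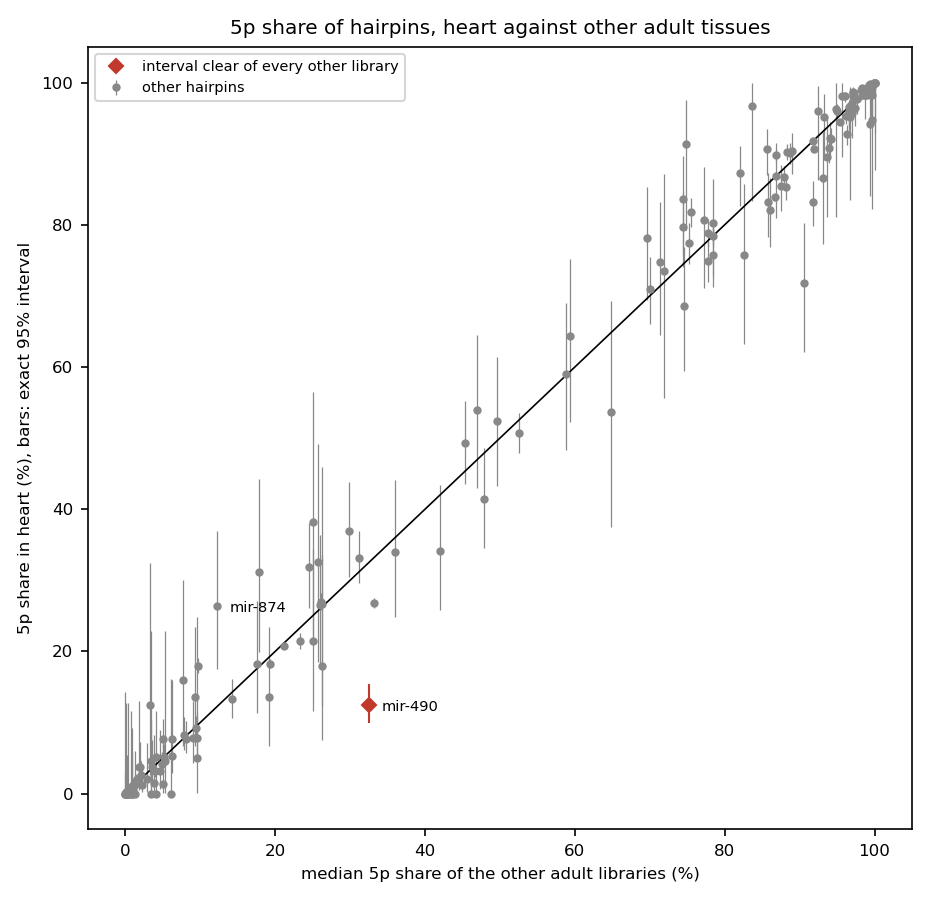
Share of 5p reads of 197 hairpins in heart (vertical, bars are exact 95% intervals) against the median of the other adult libraries (horizontal), both in percent, with the line of equality. mir-490, in red, at 12.5% in heart, is the only one whose interval is clear of every other library with at least 20 reads.

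Other hairpins outside the range of the others differed by less or had fewer reads. mir-874 had 26.4% in heart (17.6 to 37.0, 87 reads), against at most 15.9% elsewhere, and mir-340 had 83.2% (79.9 to 86.2, 577 reads), against at least 85.5%. mir-98 had 92.7%, against at least 94.7%, and mir-10a 99.3%, against at most 98.8%. The dominant arm in heart differed from that of the median of the others for mir-501, at 52.4% (43.3 to 61.5), and mir-376b, at 53.9% (43.0 to 64.6), and both intervals took in 50%.

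The hairpins of the heart miRNAs themselves kept the dominant arm of the other tissues, though the 5p share of mir-208a was higher in heart than in lung. The 5p share of mir-499 was 98.7% in heart, against 87.7% (spleen) to 100% (lung), that of mir-133a 2.01%, against 0.369% (stomach) to 3.04% (lung), and that of mir-378a 5.28%, against 3.3% (testis) to 7.92% (brain). mir-208a, which was chosen after its values were seen since too few other libraries held enough of its reads for the comparison above, had a 5p share of 14.1% in heart (13.5 to 14.6, 15628 reads). In lung it was 2.17% (1.40 to 3.21, 1105 reads), in salivary gland 1.72% (0.0436 to 9.24, 58 reads) and in kidney 4% (0.101 to 20.4, 25 reads). The heart interval lay above those of lung and salivary gland and within that of kidney. It also lay within that of liver, at 35.7% (12.8 to 64.9) from only 14 reads. The embryos had 3.58% to 10.9% from 147 to 421 reads, so that the 3p arm led in each of these libraries.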

How the data were processed

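Small RNA libraries of 15 mouse tissues and embryos were analysed from counts of reads per mature miRNA name, as deposited by the authors, with names not listed taken as 0. Per the labels' protocols, libraries were made by AQ-seq from commercial total RNA with spike-in RNAs and sequenced on a MiSeq. Per the submitters' processing notes, the tools were BWA, bedtools, cutadapt and bcl2fastq 1.8.4 and the build was mm10. Not given in the sources used here are the annotation release and the treatment of reads that match several hairpins. Groups came from the titles, with 1 library per tissue.

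Totals of the other adult libraries were 148052 (testis) to 3161463 (brain), with stomach next lowest at 922137. A floor of 3 reads stood for 1.14 CPM in heart and 20.3 in testis. Shares were computed in Python 3.11.15 with scipy 1.17.1, with exact 95% intervals. Ratios of shares have exact conditional intervals. Names needed at least 20 reads in heart, or an expected 20 where heart was low, and 2-fold was the threshold of a difference. edgeR 4.0.16 tested heart against the 11 on counts with filterByExpr and TMM scaling, and arm usage from 5p and 3p counts, with library terms and an arm by heart term. Each SE given for edgeR was worked back from the test, as the absolute log2 fold change over the square root of the F statistic. Benjamini-Hochberg adjustment ran over all names or hairpins, with a threshold of 0.05. DESeq2 1.42.0 and limma 3.58.1 (with 0.5 added to each arm) were alternatives. The fits were tested on simulated data.

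The members, the miRNA lists and the rule for named miRNAs (the given markers, the 10 most abundant, the highest and lowest ratios and list members) were chosen with earlier results of these data known. Sequences are RefSeq's, and hosts are those of GENCODE M21.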

Additional observations from a re-analysis of the deposited data

Results flagged for a closer look

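The embryo libraries, which entered no main test of heart, held more reads of 7 heart-leading miRNAs than a count of 0 allows. miR-1a-3p reached 0.795% of reads in the 15-day embryo, against 17.4% in heart. miR-499-5p reached 0.0858% in the 15-day embryo and miR-499-3p 0.00781% in the 17-day embryo, against 1.004% and 0.0135% in heart. miR-133a-5p reached 0.0534% and miR-1a-2-5p 0.00472% in the 17-day embryo, against 0.230% and 0.0427% in heart. miR-208a-3p reached 0.0153% in the 17-day embryo and miR-208a-5p 0.00106% in the 11-day embryo, against 0.512% and 0.0839% in heart. All 7 were lower in each embryo than in heart.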

How the results depend on the processing

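With the edgeR test no name passed in either direction with total counts, no filter on low counts, or without testis or smooth muscle. With DESeq2 14 were higher and 11 lower. With the 3 embryo libraries 9 were higher, and leaving out 1 other library in turn gave 0 to 9 higher, 9 without eye and 3 without lung, and 0 to 0 lower. Arm usage gave 0 calls under every alternative, 0 to 0 in both directions when 1 library was left out. The 19 names over the highest other became 9 at 4-fold and 16 to 24 under the rest, with 19 to 21 when 1 library was left out. The 9 names under the lowest other became 4 with TMM-scaled CPM, and 9 to 14 when 1 library was left out (14 when it was spinal cord). The count of 1 hairpin outside all others, mir-490, was 0 at a minimum of 50 reads and 0 to 1 when 1 library was left out. It was 0 without brain, eye, lung, spinal cord or stomach, because fewer than 6 other libraries then had enough reads of mir-490, and without smooth muscle the 1 hairpin was mir-99a in its place (5p share of 99.8% in heart, against at most 99.7%). No log2 fold change of a leading name changed side under these alternatives, nor did a ratio to the highest other, except that of miR-504-5p, which was 0.542 with the embryos. Of these ratios 60 left their counting interval, most of them with TMM or without miR-1a-3p in the totals, and 35 log2 fold changes passed under an edgeR alternative or DESeq2 that had not in the main test. With the embryos the ratio to the highest other was 1.73 for miR-499-3p, 1.30 for miR-133b-3p and 1.03 for miR-208b-3p. No paired analysis was possible because each tissue has 1 library. Depth limits testis most, and the single heart library limits every comparison.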
